A study of Mus musculus with 4 samples.

Results

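Notch signalling passes between touching cells, and 10 of its genes were followed here in cells sorted from the mouse submandibular gland, a major salivary gland. They are the receptor genes Notch1, Notch2 and Notch3, the ligand genes Jag1, Jag2 and Dll1, and the target genes Hes1, Hey1, Nrarp and Dtx1. They were taken by name from the array's own gene column, with every probe that carries the name, which gave 12 probes among 55681. The array names 36282 genes and transcripts in all. Of the 10 genes, 8 had a probe bright enough to test, through 9 of the 12 probes.

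The arrays compare 2 samples labelled as submandibular gland stem cells with 2 samples labelled as non-stem cell epithelia of the same gland. Both groups came from C57BL/6 mice of 8 to 10 weeks, and both were sorted fresh by flow cytometry, per the labels. The comparison sets gene expression in the stem cells against that in the other epithelial cells. The sources used here name neither the antigens of the sort nor whether the 2 samples of a group came from separate mice or sorts. The spread behind the p-values is that between these samples alone, and it may be technical.

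In this pathway a Jagged or Delta ligand on one cell binds a Notch receptor on its neighbour. The receptor is then cut by a metalloprotease and by gamma-secretase, and its freed intracellular part enters the nucleus and joins the DNA-binding protein Rbpj to switch on targets such as Hes1 and Hey1. In many epithelia the pathway takes part in choosing between basal, ductal and secretory fates.

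All 4 arrays lay on 1 slide scanned once. The 75th percentile of the signal over probes was 30.4 and 43.3 in stem cells, against 74.8 and 63.0 in non-stem cell epithelia, and the scanner software rated 35.7% and 39.0% of spots in stem cells, against 42.3% and 41.9% in non-stem cell epithelia, as well above background. Every level below is a log2 signal relative to that percentile of its own array, and levels of different probes are not set against each other. The probes for the array maker's spike-in control RNA stood 2.25 higher in stem cells on this scale (median of 7 control probes, range 1.79 to 2.47), so a difference here is relative to the other genes on the array and not per spike-in. Scaling on the spike-ins lowers every log2 difference by the same amount and puts the median of all probes at -2.21. On that scale the fit gave every tested member the same SE of 0.43. Its p-values there follow the size of the difference and hold no spread of the single gene. In RNA of sorted populations, fewer cells of a type and less RNA per cell cannot be told apart.

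The sorted populations differed in epithelial markers. Of 6 acinar markers 5 fell and the other, Lpo, did not pass, with Aqp5, the acinar water channel, at a log2 difference of -3.19 ± 0.16 (SE). Of 6 basal and myoepithelial markers 3 rose, with Krt5 at 3.15 ± 0.20, and the other 3, Trp63, Acta2 and Cnn1, did not pass by their brightest probe, while a second probe of Trp63 passed at 2.99 ± 0.24 (adjusted p = 0.00149). Of 6 general epithelial markers 3 rose, 1 of them (Krt8) by 1 of its 2 probes, and 1, Epcam, fell by 1.23 ± 0.20. The summed linear level of the tested markers, in units of each array's 75th percentile, was 258 and 256 in stem cells, against 3951 and 4268 in non-stem cell epithelia for the acinar list, and 171 and 170 in stem cells, against 80.3 and 85.0 in non-stem cell epithelia for the basal list. Of 8 leukocyte markers 4 were tested and none passed by its brightest probe, a second probe of Csf1r passing at 0.96 ± 0.23 (adjusted p = 0.0329), with Ptprc, Cd68 and Lyz2 above background on no array and summed levels of 7.20 and 5.32 in stem cells, against 5.81 and 6.68 in non-stem cell epithelia. Of 6 fibroblast markers 2 were tested, of which Dcn was higher and Col1a2 had a difference of -0.49 ± 0.17 that did not pass (limma adjusted p = 0.0854). Col1a1, Pdgfra and Lum were above background on no array. The summed levels were 21.0 and 22.8 in stem cells, mostly from Dcn, against 8.95 and 9.44 in non-stem cell epithelia. On the spike-in scale the differences of Krt8, Krt18, Krt7, Csf1r and Dcn fall below 0. The part of these markers in the results on Notch genes was not tested.

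Each value rests on a short stretch of transcript that the probe reads, so the first 30 of the 60 bases are shown for the probes that carry the results, in the sense of the transcript and in lower case throughout. Notch1 and Notch2 have 2 probes each, called a and b from the brighter to the dimmer.
Notch1 probe a: tcctgcagtggagggggccttgagacaggc
Notch1 probe b: ttgcttctttccaaaatcgaaaagaaagaa
Notch2 probe a: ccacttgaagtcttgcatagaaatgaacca
Notch2 probe b: tcttcaccacactctgcatctgactggtca
Jag1 probe: ggagtattctcataagctagttgaatactt
Jag2 probe: ttgtataaattattcaacggctgtcaggcg
Hes1 probe: ttaaaatatcttcctttggggaagtttatt
Hey1 probe: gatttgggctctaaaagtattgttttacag

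Relative to the other genes on the array, the ligand gene Jag1 and the receptor gene Notch2 were higher in stem cells and the target gene Hey1 was lower, each with signal above background on all 4 arrays. The ligand gene Jag2 also passed as higher and the target gene Dtx1 as lower. Each was above background only in the group where it is higher and entered the test through that group alone, which favours a difference. Notch1, Notch3 and Hes1 did not pass, and Dll1 and Nrarp were too dim to test. Genes were compared with limma over all 22642 probes well above background on at least 2 arrays, with an adjusted p of 0.05 as the threshold, and a gene was called by its brightest tested probe. The members gave 3 higher and 2 lower calls of 8, beside 13.1% of 17359 genes called higher, 15.8% called lower and 28.9% called either way. In these counts Jag2 and Dtx1 are the members whose entry through 1 group favours a difference. By probes it was 3 higher and 2 lower of 9, beside 12.9%, 15.9% and 28.8% of all tested probes. The median log2 difference was 0.20 over the 8 members and -0.01 over all genes tested. The direction of Notch2 and Jag1 depends on the scale, since with arrays set on the spike-ins instead their log2 differences were -1.39 and -0.63. Without non-stem cell epithelia replicate 2 the calls of Jag1, Notch2 and Dtx1 were lost. Those of Hey1 and of Jag2, with its entry through 1 group, held when any 1 array was left out. That of Hey1 held only just without either non-stem array.

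**Figure D1:**
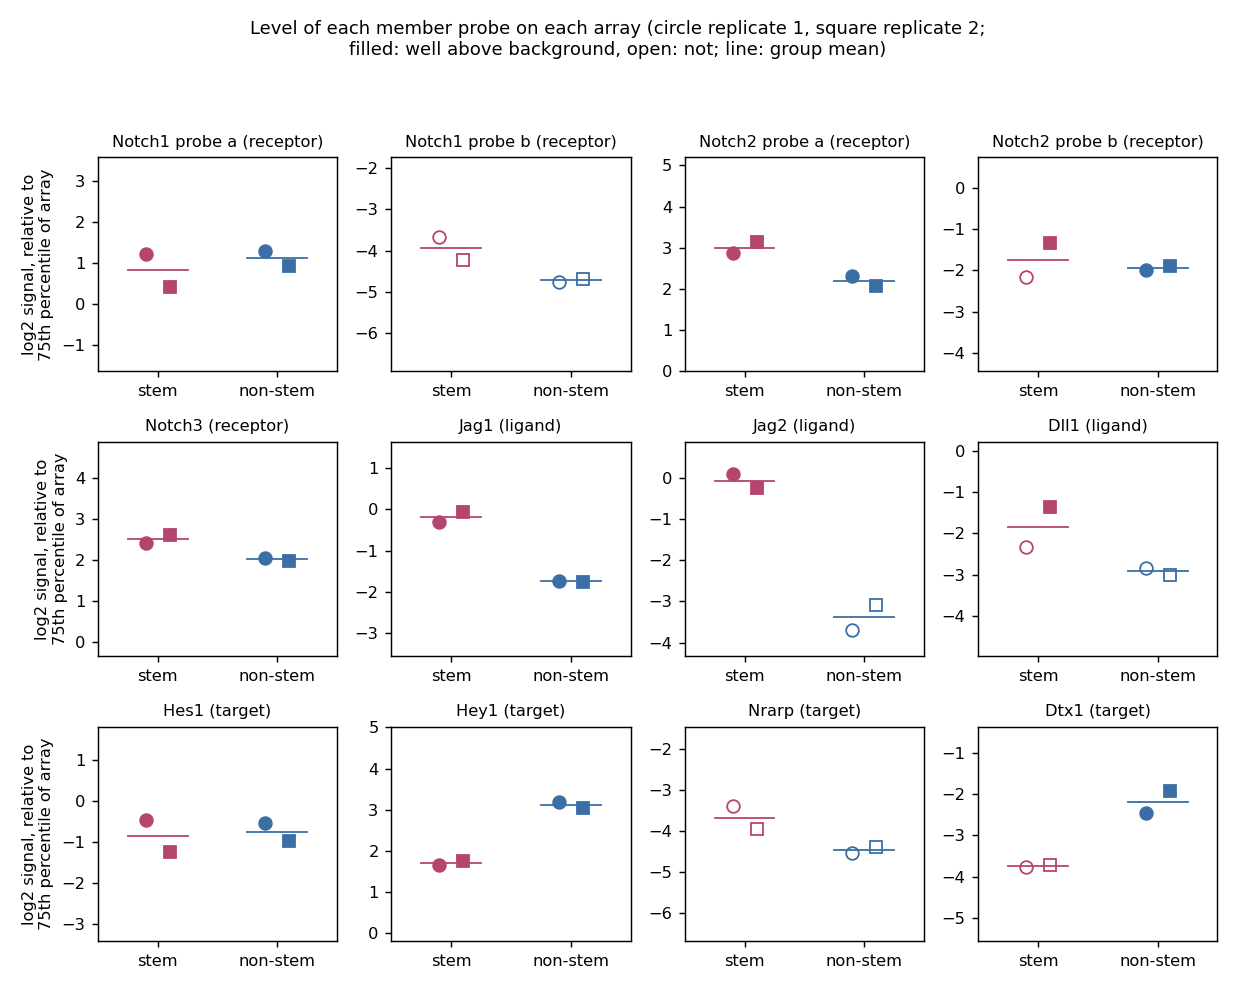
Log2 signal relative to the array's 75th percentile (vertical axis, the same span of 5.2 units in every panel) for each of the 12 probes on 2 stem cell and 2 non-stem arrays. Filled points are well above background, open points are not, and lines are group means; Jag1 (not on the spike-in scale) and Jag2 lie higher on both stem cell arrays, Hey1 lies lower, and Hes1 and probe a of Notch1 overlap.

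Of the ligands, Jag1, a membrane-bound ligand that is mutated in human Alagille syndrome, had log2 levels of -0.32 and -0.05 in stem cells, against -1.75 and -1.76 in non-stem cell epithelia. Both stem cell arrays lay above both others, and the 2 non-stem values differed by far less than the gap between groups. Relative to the 75th percentile, Jag1 was 2.96-fold higher in stem cells, a log2 difference of 1.57 ± 0.17 (SE, n = 2 arrays per group, limma adjusted p = 0.00372). Its probe lies at chr2:136907433-136907492, minus strand (mm9, as for every probe here); whether probes lie in coding or untranslated sequence was not analysed here. On the spike-in scale the log2 difference of Jag1 was -0.63 (limma adjusted p = 0.146). With normexp background correction, run with an offset of 50 added to every signal, it was 0.59 (limma adjusted p = 0.00532). Without non-stem cell epithelia replicate 2 it was 1.56 and the call was lost.

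Jag2, the closest relative of Jag1 among the ligands, had log2 levels of 0.11 and -0.25 in stem cells, against -3.68 and -3.09 in non-stem cell epithelia. Its signal was well above background in stem cells replicates 1 and 2 and in neither sample of non-stem cell epithelia. Set against the lowest signal that counted as well above background on the non-stem arrays, the level of Jag2 in stem cells was 5.32-fold higher, taken here as a lower bound. That lowest signal is no strict limit. On non-stem cell epithelia replicate 1 it was -2.53, while a probe of Maml3 at -2.48 was not rated well above background. The measured means were -0.07 and -3.38, a log2 difference of 3.31 ± 0.26 (SE, limma adjusted p = 0.00148), which rests on the dim non-stem signals and does not test the bound. On the spike-in scale the measured log2 difference was 1.11 (limma adjusted p = 0.0107), which rests on the same dim signals. The bound moved to that scale by a fixed shift was 1.16-fold. The range of the control probes (1.79 to 2.47) was not carried into it, so it is no firm minimum. With normexp, whose offset of 50 draws dim signals together, the measured difference was 0.89 (limma adjusted p = 0.000522). The probe lies at chr12:114146887-114146946, minus strand.

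Dll1, a Delta-type ligand, is printed as 10 spots of the same probe on each array (chr17:15504623-15504682, minus strand). On stem cells replicate 2, 9 of 9 usable spots were well above background, with a median linear signal of 17.9 and a range of 11.6 to 20.6. On stem cells replicate 1 it was 1 of 10 spots, with a median of 7.05. On the non-stem arrays it was 3 of 10 and 0 of 10 spots, with medians of 9.99 and 8.03. The signal of Dll1 thus stood clear of background on 1 stem cell array of 2, and it was not tested, since a probe needed the majority of its usable spots above background on at least 2 arrays. Its log2 levels were -2.32 and -1.36 in stem cells, against -2.84 and -3.01 in non-stem cell epithelia. When 1 bright spot was enough, a rule added after its spots were seen, the log2 difference was 1.08 ± 0.33 (SE, limma adjusted p = 0.0628).

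**Figure D2:**
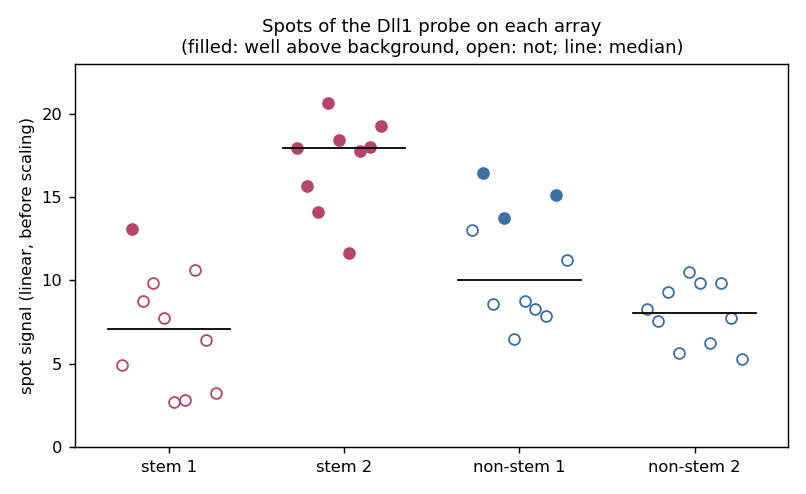
Linear spot signal before scaling (vertical axis) of the usable spots of the Dll1 probe on the 2 stem cell and 2 non-stem arrays, with filled points well above background and lines at the medians. All 9 usable spots of stem cells replicate 2 are filled, against 1 of 10 on stem cells replicate 1, 3 of 10 on non-stem replicate 1 and 0 of 10 on non-stem replicate 2.

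Of the receptors, Notch2 was read by 2 probes that lie 2681 bases apart both on chromosome 3 and along the transcript. Probe a (chr3:97953914-97953973, plus strand) had log2 levels of 2.87 and 3.13 in stem cells, against 2.32 and 2.06 in non-stem cell epithelia. The groups did not overlap, and Notch2 was 1.75-fold higher in stem cells by this probe, a log2 difference of 0.81 ± 0.19 (SE, limma adjusted p = 0.0300). Probe b (chr3:97951233-97951292) had log2 levels of -2.17 and -1.34 in stem cells, against -2.00 and -1.90 in non-stem cell epithelia. Its groups overlapped, it was not well above background on stem cells replicate 1, and its log2 difference was 0.19 ± 0.30 (SE, adjusted p = 0.655). With the mean of both probes, the difference of Notch2 was 0.50 and did not pass (adjusted p = 0.144). The call of probe a was also lost without non-stem cell epithelia replicate 1 (adjusted p = 0.0939), without non-stem cell epithelia replicate 2 (0.174), without the filter on dim probes (0.119) and with normexp (0.34, adjusted p = 0.139), and the sign turned on the spike-in scale, at -1.39 (adjusted p = 0.00149).

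Notch3, a receptor best known in the smooth muscle and pericytes of blood vessels, had log2 levels of 2.43 and 2.61 in stem cells, against 2.05 and 1.99 in non-stem cell epithelia (chr17:32257848-32257907, minus strand). Both stem cell arrays lay above both non-stem arrays. The log2 difference of 0.50 ± 0.16 (SE) did not pass (limma adjusted p = 0.0725). It passed with quantile normalization (0.62, adjusted p = 0.0335), with the percentile taken over detected probes (0.64, 0.0293), with an intensity trend in the variances (0.50, 0.00959) and with probes restricted to those bright on all 4 arrays (0.50, 0.0365), and it was -1.70 on the spike-in scale (adjusted p = 0.000107). It did not pass with normexp (0.11, adjusted p = 0.595), without the filter (0.50, 0.185) or with the replicate number as a block (0.50, 0.137). Of 8 mural cell markers, Rgs5, Pdgfrb, Cspg4, Kcnj8 and Des were well above background on no array and Abcc9 on 1. The tested ones were Mcam and Myh11, with log2 differences of 0.21 (limma adjusted p = 0.393) and -0.21 (limma adjusted p = 0.410). A second probe of Mcam was well above background on no array.

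Notch1, the receptor with the widest known role in epithelia, gave a signal with 1 of its 2 probes. Probe a (chr2:26319440-26319499, minus strand) had log2 levels of 1.22 and 0.43 in stem cells, against 1.29 and 0.94 in non-stem cell epithelia. The groups overlapped, the 2 stem cell arrays lying further apart than the group means, and the log2 difference of -0.29 ± 0.31 (SE) did not pass (limma adjusted p = 0.509). Without stem cells replicate 1 it was -0.68, and without stem cells replicate 2 it was 0.11. On the spike-in scale it was -2.49, with the SE of 0.43 that all members share there (limma adjusted p = 2.76e-08). Probe b (chr2:26314630-26314689), 2323 bases further along the transcript, was well above background on none of the 4 arrays, with linear signals of 2.40 and 2.31 in stem cells, against 2.75 and 2.45 in non-stem cell epithelia.

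Of the targets, Hey1, a transcriptional repressor of the Hairy and Enhancer-of-split family, had log2 levels of 1.66 and 1.75 in stem cells, against 3.19 and 3.05 in non-stem cell epithelia. The replicates of each group lay close together and the groups did not overlap. Hey1 was lower in stem cells by a log2 difference of -1.42 ± 0.16 (SE, limma adjusted p = 0.00405), so that non-stem cell epithelia carried 2.67-fold more. The difference was negative under every alternative listed in the closing section, from -3.61 on the spike-in scale to -1.28, and the call was lost without the filter on dim probes (adjusted p = 0.0555). The probe lies at chr3:8663432-8663491, minus strand.

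Hes1, the repressor most widely used as a readout of Notch activity, had log2 levels of -0.46 and -1.25 in stem cells, against -0.54 and -0.97 in non-stem cell epithelia (chr16:30067820-30067879, plus strand). The groups overlapped and each replicate pair was wider apart than the group means. The log2 difference of -0.10 ± 0.31 (SE) did not pass (limma adjusted p = 0.837), nor did that of 0.07 with normexp (adjusted p = 0.717). On the spike-in scale it passed at -2.29, with the SE of 0.43 shared by all members (limma adjusted p = 2.57e-07). The change of Hey1 was 1.32 further down than that of Hes1, with an SD of 0.62 between stem cell arrays and 0.20 between non-stem arrays. A shift of whole arrays has no bearing on this gap, which was not tested. The change of Jag1 was 2.98 above that of Hey1 on the same footing. Background correction does bear on such gaps, since with normexp the log2 differences were 0.59 for Jag1 and -1.49 for Hey1.

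Dtx1, an E3 ubiquitin ligase gene of the Deltex family, had log2 levels of -3.76 and -3.71 in stem cells, against -2.45 and -1.93 in non-stem cell epithelia. It was well above background on both non-stem arrays and on neither stem cell array. The log2 difference of -1.55 ± 0.22 (SE) passed (limma adjusted p = 0.00783), but the lowest signals counted as well above background on the stem cell arrays, -1.51 and -2.00, average above the non-stem mean of -2.19. No fold can therefore be given for Dtx1. With normexp the log2 difference turned to 0.11 (limma adjusted p = 0.551). Its offset of 50 is large beside the linear signals of Dtx1, 2.24 and 3.30 in stem cells, against 13.7 and 16.5 in non-stem cell epithelia. The call was lost without the filter on dim probes (limma adjusted p = 0.0647). It was also lost without non-stem cell epithelia replicate 2, where the log2 difference was -1.29. Nrarp, whose product restrains Notch signalling and which is itself switched on by it, was well above background on no array. Its log2 levels were -3.40 and -3.96 in stem cells, against -4.54 and -4.38 in non-stem cell epithelia. Its linear signals before scaling were 2.88 and 2.78 in stem cells, against 3.21 and 3.03 in non-stem cell epithelia, so the order of the groups turns with the scaling. Dtx1 was read at chr5:121130278-121130337, minus strand, and Nrarp at chr2:25038038-25038097, plus strand.

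**Figure D3:**
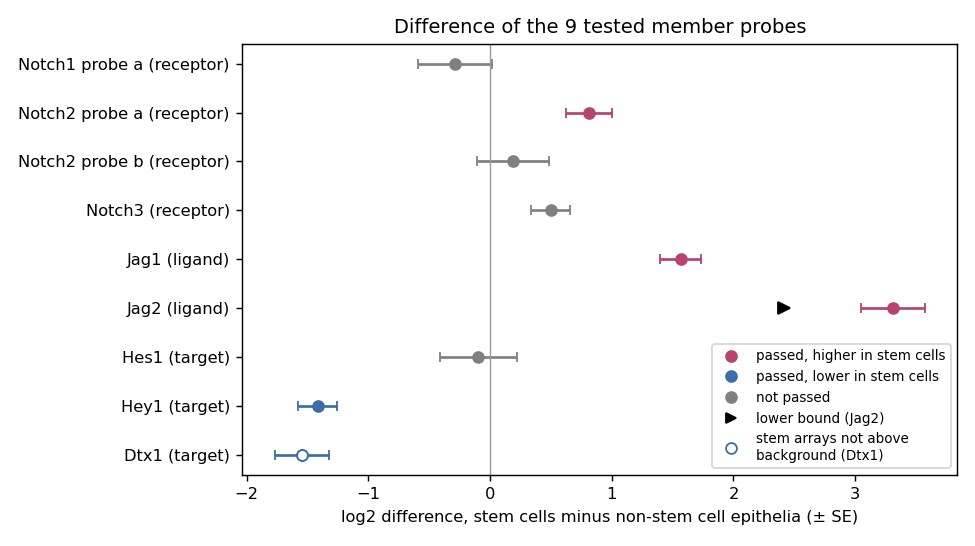
Log2 difference, stem cells minus non-stem cell epithelia, with its SE (horizontal axis) for the 9 tested probes of 8 members; the triangle marks the lower bound of Jag2 and the open point the Dtx1 probe, dim on both stem cell arrays. Jag1, Jag2 and probe a of Notch2 passed to the right of 0 and Hey1 and Dtx1 to the left, while on the spike-in scale Jag1 and Notch2 lie left of 0 and with normexp Dtx1 lies right of it.

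**Figure D4:**
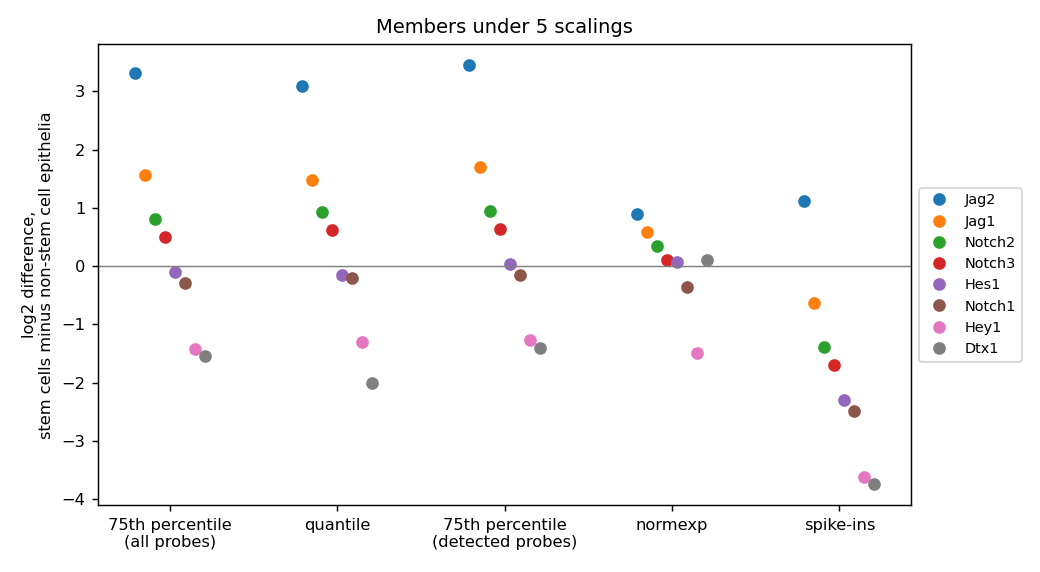
Log2 difference, stem cells minus non-stem cell epithelia (vertical axis), of the 8 tested members under 5 ways of scaling or background correction (horizontal axis). Jag2 lies highest under each of the 5 and Hey1 below 0 under each, whereas Notch2, Notch3 and Jag1 lie below 0 with the spike-ins and Dtx1 lies above 0 with normexp.

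The upstream sequences of the members were searched for the core motif of Rbpj, TGGGAA, its longer form GTGGGAA, which contains it, and the N-box CACNAG bound by Hes factors, on both strands. The RefSeq windows (GRCm38.p6) span 250 bases before to 50 after the start, and 8 of 10 members matched with 9 windows, all but Hes1 and Hey1. TGGGAA occurred in 0 of 9 windows, beside 25.6% of 32851 windows of all genes, and GTGGGAA in 0 of 9, beside 6.38%. CACNAG occurred in 6 of 9 windows, beside 42.5%, with 3 of 3 for receptors, 1 of 4 for ligands and 2 of 2 for targets. A match is a description of letters, not a bound site. Jag1 and Jag2 held none of the 3 motifs in their windows. Of the members that passed the test, Notch2 and Dtx1 held an N-box match, and the stretches around it are shown with the match in capitals, as read on the strand of the gene.
Notch2, 250 to 191 bases upstream, chr3:98013288-98013347, plus strand: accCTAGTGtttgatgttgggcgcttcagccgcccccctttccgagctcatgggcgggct
Dtx1, 130 to 71 bases upstream, chr5:120711740-120711799, minus strand: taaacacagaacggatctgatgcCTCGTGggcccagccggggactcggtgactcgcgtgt

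The rest of the pathway was followed in 49 further genes, of which 48 are on the array and 36 were tested. Of these, 4 were higher in stem cells and 1 was lower, and 31 did not pass, beside 13.1% and 15.8% of all genes. Their median log2 difference was 0.14, beside -0.01 over all genes. Without non-stem cell epithelia replicate 1 or 2, 1 was higher and 0 were lower by limma (3 and 1 lower at an unadjusted p under 0.05). The largest was that of Dlk2, a Delta-like membrane protein that is a non-canonical Notch ligand, with log2 levels of 2.32 and 2.10 in stem cells, against -0.07 and 0.13 in non-stem cell epithelia. The difference of 2.18 ± 0.18 (SE, limma adjusted p = 0.00159) was that of 1 of its 2 probes, and the other gave 0.04 ± 0.31. On the spike-in scale no gene of the 36 was higher at an adjusted or an unadjusted p of 0.05 by limma, and 35 were lower. Beside this, 158 of all 22642 tested probes were called higher on that scale and 21727 lower, so nearly all probes fall with it.

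Among the other receptors and ligands, Dll4, Dll3, Dlk1 and Dner were well above background on no array and Notch4 on 1. Dll4 and Notch4 are known above all from blood vessels, and of 12 endothelial markers Cdh5, Tie1, Emcn, Esam, Erg and Sox17 were likewise above background on no array. Of the 5 endothelial markers tested, Cldn5, Egfl7 and Robo4 were higher in stem cells, with Egfl7 at 1.75 ± 0.28 (SE), while Pecam1 (-0.51 ± 0.41) and Kdr (0.40 ± 0.18) did not pass, and on the spike-in scale Cldn5 and Egfl7 fall below 0. The summed level of the tested endothelial markers was 19.5 and 18.6 in stem cells, against 11.7 and 12.4 in non-stem cell epithelia. Most of this sum was the brighter probe of Kdr, with log2 levels of 3.92 and 3.62 in stem cells, against 3.31 and 3.43 in non-stem cell epithelia. A second, far dimmer probe of Kdr was above background on stem cells replicate 2 alone and was not tested. It had log2 levels of -2.62 and -1.89 in stem cells, against -4.31 and -4.18 in non-stem cell epithelia. The part of the endothelial markers in the levels of Jag1, Jag2 and Hey1 was not tested.

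Of the genes for enzymes that add sugars to Notch receptors, Rfng had a log2 difference of -0.08 ± 0.18, Pofut1 of -0.05 ± 0.16 and Poglut1 of 0.05 ± 0.24 (SE), and none of these 3 passed by its brightest probe. Second probes of Rfng (-1.94 ± 0.33, adjusted p = 0.0131) and Pofut1 (-1.10 ± 0.24, adjusted p = 0.0248) passed as lower, both of them above background on neither stem cell array. Lfng, a Fringe gene that shifts receptors between Delta and Jagged ligands, was above background on 1 non-stem array, and Mfng on none. Of 8 tested genes for the proteases that cut the receptor, none passed by its brightest probe, and a second probe of Aph1a, a gamma-secretase subunit, passed as lower (-0.71 ± 0.16, adjusted p = 0.0258). Adam10 and Adam17 had log2 differences of 0.54 (adjusted p = 0.0755) and 0.62 (adjusted p = 0.0595).

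Of 10 tested genes of the nuclear complex and its corepressors, 1 rose and 1 fell by the brightest probe. Rbpj itself had log2 levels of 1.21 and 1.10 in stem cells, against 0.85 and 0.60 in non-stem cell epithelia, and its difference of 0.43 ± 0.17 (SE) did not pass (limma adjusted p = 0.119). A second probe of Rbpj, above background on all 4 arrays, had log2 levels of 0.25 and 0.13 in stem cells, against -1.14 and -0.84 in non-stem cell epithelia, and passed as higher (1.17 ± 0.18, adjusted p = 0.00961), so the call of Rbpj depends on the probe. A second probe of Maml3, which encodes a coactivator of the complex, passed as higher as well (1.53 ± 0.26, adjusted p = 0.0123), where the brightest gave 0.58 (adjusted p = 0.0529). On the spike-in scale both of these differences fall below 0. Spen, which encodes a corepressor that binds Rbpj, was higher by 0.78 ± 0.16 (adjusted p = 0.0214). Kat2b, which encodes a histone acetyltransferase that works with the Notch complex, had log2 levels of -0.42 and 0.09 in stem cells, against 1.55 and 1.74 in non-stem cell epithelia, a difference of -1.80 ± 0.23 (adjusted p = 0.00549). Of 12 tested genes of ligand and receptor endocytosis and turnover, Dtx3l (0.84 ± 0.16, adjusted p = 0.0172) and Dtx4 (0.67 ± 0.17, adjusted p = 0.0397) were higher and none was lower. Both belong to the Deltex family of Dtx1, whose dim signal went the other way except with normexp, and a second tested probe of Dtx3l gave -0.18 ± 0.43. Of the remaining Hes and Hey genes, Hes6 (-0.41 ± 0.15) and Hes7 (0.02 ± 0.18) were tested and did not pass, Hes3, Hes5, Hey2 and Heyl were above background on no array, and Hes2 on 1. Of the 3 Hey genes on the array, Hey1 was the 1 with a signal above background.

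**Figure D5:**
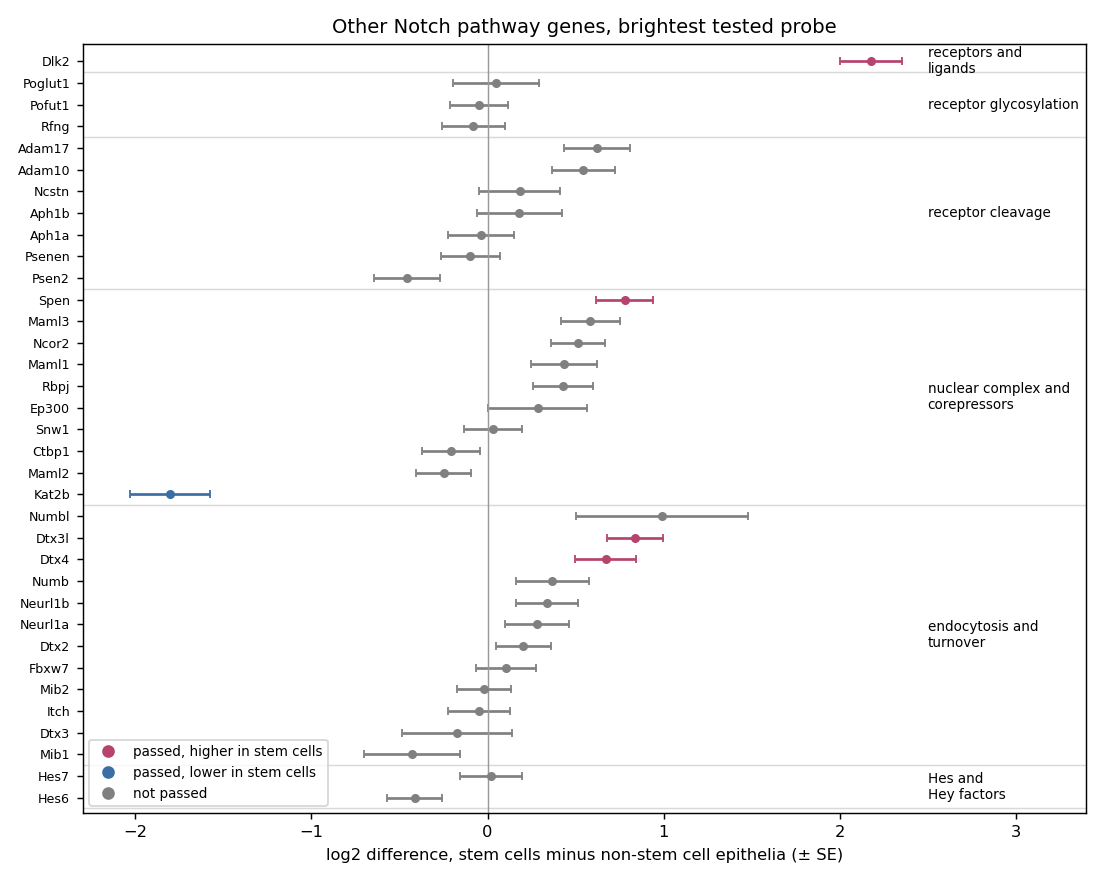
Log2 difference, stem cells minus non-stem cell epithelia, with its SE (horizontal axis) for 35 of the 36 tested genes of the wider pathway, grouped by role from top to bottom. Dlk2, Spen, Dtx3l and Dtx4 passed to the right of 0 and Kat2b to the left on the percentile scale. On the spike-in scale none of the 36 was higher, beside 158 of all 22642 tested probes.

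The genes whose 4 values ran closest to those of Jag1 and Hey1 were sought among 10004 genes bright on all 4 arrays, by the Euclidean distance of log2 levels after each gene was centred on its mean. For Jag1 they were Nrep (distance 0.09), Per1 (0.09) and Nid2 (0.09), and for Hey1 they were Herpud1 (0.03), Aars (0.06) and Sil1 (0.07). With 4 arrays such a distance says little beyond a difference between groups of like size, which for these genes was 1.56, 1.53, 1.60, -1.39, -1.39 and -1.39 in that order.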

How the data were processed

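Cy3-labelled RNA of 4 sorted samples was measured on one-colour Agilent arrays. The deposited scanner files hold spot intensity, background-subtracted and detrended by the authors with Agilent Feature Extraction 10.7.3.1, per the file headers, which also place probes on mm9. The submitters' processing notes name version 9.1 instead. The authors' deposited series table holds log2 values, whose differences between arrays correlated at 1 with those used here; the baseline of each probe stays unknown, and column medians were -0.27 and -0.55 in stem cells, against -0.83 and -0.75 in non-stem cell epithelia. It served as an alternative.

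From the intensities, outlier spots were left out, log2 signals were averaged per probe, and the 75th percentile of all non-control probes was subtracted on each array. Probes well above background on at least 2 of 4 arrays were tested two-sided with limma's lmFit and eBayes (version 3.58.1, under R 4.3.3). P-values were adjusted by Benjamini-Hochberg across the tested probes, and this main fit had 5.35 degrees of freedom in all. The number of arrays limits the precision. Symbols came from RefSeq (GRCm38.p6) through accessions for 26582 probes, while 29099 carry the name on the array. More than 1 probe was tested for 3921 genes, and in 1316 of them the signs differed.

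The members and gene lists were chosen with earlier results of these data known. All members with all probes are named, as are the wider pathway's called genes and Notch4, Dll4, Rbpj, Lfng, Mfng and Rfng; the other genes of the lists were named after their values were seen. For 1 gene of the wider pathway the values are not reported here. Same-numbered replicates deviated from their group means with a correlation of -0.10 across genes, so the numbers were not taken as pairs. Alternatives were other scalings, background corrections, filters, variance models, probe summaries, the deposited values, a replicate block and leaving out each array. The normexp background correction was run with an offset of 50 added to every signal, which draws dim signals together.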

Additional observations from a re-analysis of the deposited data

How the results depend on the processing

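Members gave 3 higher and 2 lower calls, other pathway genes 4 and 1, and all probes 2924 and 3608. With the spike-ins (chosen after seeing the data) these became 1 and 6, 0 and 35, and 158 and 21727. The log2 differences were -1.39 for Notch2, -1.70 for Notch3 and -0.63 for Jag1, each with the same SE of 0.43. The median over all probes moved to -2.21, which this scaling itself makes. With normexp and its offset of 50, 1 member was lower, 1 other gene higher and 8 lower. It gave 5908 probes lower against 2231 higher, and Dtx1 turned to 0.11. The parts of the offset and of the background correction in these changes were not tested. Of all calls 44.8% were higher, 27.4% with normexp and 58.6% with the percentile over detected probes, which shifted the median to 0.12 and gave 8 higher other genes. Without the filter the median was 0.54 over more and dimmer probes, 0 members were lower by limma (2 at an unadjusted p under 0.05), 1 other gene higher, and 931 and 838 probes were called. With probes bright on all 4 arrays 1 member was lower and 8 and 2 other genes were called, and Jag2 and Dtx1 were not tested. An intensity trend gave 8 and 4 other genes and 4410 higher probes. With 1 probe per gene 2 other genes were lower, and with the mean of probes 3. With a 2-fold minimum 1 other gene was higher, and 1534 and 2192 probes were called.

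Leaving out 1 array gave 1 to 3 higher and 1 to 3 lower members, 1 to 5 higher and 0 to 3 lower other genes (0 without non-stem cell epithelia replicate 1 or 2, where 3 and 1 had an unadjusted p under 0.05 by limma), and 548 to 3626 higher and 723 to 4690 lower probes; the fewest came without non-stem cell epithelia replicate 2, where the spread rests on the stem cell pair and the lone array is assumed to vary alike. The replicate block left members at 3 and 2, other genes at 3 and 1 and probes at 2750 and 3641, and changed no member's call. The crossed block, added after the pairing check, gave 3 and 2, 3 and 1, and 2139 and 2711. The deposited values and the 1-spot rule left the members' counts at 3 and 2.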
